A study of Mus musculus with 12 samples.

Results

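The 10 genes described here encode carriers and endocytic receptors of the kidney's proximal tubule: Lrp2, Cubn, Slc34a1, Slc5a2, Slc22a6, Slc22a8, Slc22a12, Slc4a4, Slc9a3 and Slc7a13. They were found by their symbols among the 50433 genes of the table of renal tubular epithelial cells (TECs), and 10 of 10 passed the filter on low counts that left 14734 genes. The mice were wildtype C57BL/6J males of 8 to 12 weeks, and every animal underwent renal ischemia-reperfusion injury (IRI), in which both renal pedicles were clamped for 35 minutes and released. One group of 3 mice received glutamine, as the dipeptide N(2)-L-alanyl-L-glutamine, and the other group of 3 received saline as the vehicle. The study's description of this experiment places the injection 15 minutes after reperfusion, whereas its main text gives 4 hours for the mouse model; the sources used here do not settle which holds for these mice. Cells were taken 24 hours after IRI, so that mice without IRI do not enter any comparison here. TECs were sorted from kidney as CD45-negative and Prominin-1-positive, and a separate table holds blood neutrophils (PMN) of 3 glutamine and 3 vehicle libraries, which served here as cells that should lack these genes. The TEC libraries are vehicle replicates 3, 4 and 5 and glutamine replicates 1, 2 and 3, 1 library per mouse.

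The proximal tubule is the first stretch of the nephron after the glomerulus and takes back most of the filtered salt, bicarbonate, phosphate, glucose, amino acids and small proteins. Its brush border carries the uptake carriers and the endocytic receptors, and its basolateral side carries the bicarbonate exit and the organic anion uptake. The early part (segments S1 and S2) and the late straight part (segment S3) use different carriers, and S3 lies in the outer medulla, where ischemic injury is known to be most severe. Injured proximal cells are known to lose many of these transcripts while they dedifferentiate. Of the 10 genes, Slc34a1, Slc5a2, Slc22a6, Slc22a8, Slc22a12 and Slc4a4 are assigned here to S1/S2, Slc7a13 to S3, and Lrp2, Cubn and Slc9a3 to the whole proximal tubule.

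The sequence before the start site differs widely among these genes. RefSeq windows of GRCm38.p6, the 250 bases before the RefSeq transcription start, were matched for 8 of the 10 genes, with 2 windows for Slc4a4. Their share of G and C ranged from 39.6% (Cubn) to 82% (1 window of Slc4a4), with 66.4% for Lrp2 and 67.6% for Slc9a3. The windows were searched on both strands for the TATA core TATAA and, since HNF4 factors are known regulators of proximal genes, for the HNF4 core CAAAGTCCA. The TATA core was found in the window of Slc22a8 only, where 2 matches on opposite strands overlap, and 22.8% of 32851 RefSeq windows of this length held it. The HNF4 core was found in none of the windows of the 10 genes, and 0.384% of all windows held it. Windows are printed below for Slc34a1, the most abundant of the 10 genes, and for the organic anion carriers Slc22a6, Slc22a8 and Slc22a12, whose values are compared with one another further on. Each runs 5′ to 3′ on the gene's strand, and capitals mark the TATA core. Their positions are chr13:55399398-55399647 (+), chr19:8617746-8617995 (+), chr19:8592932-8593181 (+) and chr19:6543071-6543320 (−), in that order. The windows of Slc34a1, Slc22a8 and Slc4a4 lie inside the GENCODE spans given for these genes, whose first base comes before the RefSeq start. A match is a run of letters and not a measured binding site.
Slc34a1: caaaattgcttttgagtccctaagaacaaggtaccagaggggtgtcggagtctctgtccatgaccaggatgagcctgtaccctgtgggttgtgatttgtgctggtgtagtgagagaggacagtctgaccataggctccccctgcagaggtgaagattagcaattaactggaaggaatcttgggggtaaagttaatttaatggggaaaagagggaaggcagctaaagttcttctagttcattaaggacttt
Slc22a6: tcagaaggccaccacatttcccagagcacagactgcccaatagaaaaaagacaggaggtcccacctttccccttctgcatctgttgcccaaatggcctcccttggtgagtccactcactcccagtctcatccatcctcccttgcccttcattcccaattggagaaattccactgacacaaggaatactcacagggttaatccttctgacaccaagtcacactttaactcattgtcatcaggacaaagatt
Slc22a8: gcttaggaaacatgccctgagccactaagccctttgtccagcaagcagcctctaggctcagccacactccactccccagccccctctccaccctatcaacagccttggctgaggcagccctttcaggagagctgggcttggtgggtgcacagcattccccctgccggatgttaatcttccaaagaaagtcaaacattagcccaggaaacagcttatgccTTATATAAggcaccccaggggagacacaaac
Slc22a12: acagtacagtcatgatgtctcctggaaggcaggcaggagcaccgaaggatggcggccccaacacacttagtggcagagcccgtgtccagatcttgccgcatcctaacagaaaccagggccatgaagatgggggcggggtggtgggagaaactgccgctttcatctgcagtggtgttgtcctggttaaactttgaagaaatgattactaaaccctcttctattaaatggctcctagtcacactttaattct

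Between 5397370 counts (glutamine replicate 2) and 10223461 counts were assigned to genes in the TEC libraries. Levels are given as CPM (counts scaled to a common library total) after TMM scaling, which evens out library composition, and a log2 fold change is glutamine minus vehicle. Over all tested genes the median log2 fold change was 0.0069, and 7454 genes were higher and 7280 lower. Under edgeR's quasi-likelihood test, with p-values adjusted over all genes by the Benjamini-Hochberg procedure, 0 of 14734 genes (0%) had an adjusted p below 0.05, while 1066 genes (7.23%) were higher with glutamine at an unadjusted p below 0.05 and 812 were lower. DESeq2, the tool named by the study, called 184 genes higher (1.44%) at an adjusted p below 0.05. Genes with predicted (Gm) or Rik symbols and sensory receptor genes together took 17.5, 20.8 and 23.3% of the counts in vehicle replicates 3, 4 and 5 and 27.8, 26.3 and 30.8% in glutamine replicates 1, 2 and 3. This share did not overlap between the groups. With TMM scaling computed without these genes, 9 of the 10 proximal genes were still higher and 1 was lower. Their median was then 0.62, beside 0.57 in the main setting, and that of all genes was 0.0597 beside 0.0069. The same 5 proximal genes as in the main setting had an unadjusted p below 0.05 in edgeR's test, and 0 an adjusted one. Beyond the scaling, the part of this share in the results below was not tested. Vehicle replicate 5 stood apart from the other vehicle libraries in the injury marker Havcr1 (kidney injury molecule-1), with 106 CPM against 793 and 541 CPM, while the glutamine libraries had 94.1, 49.4 and 26.2 CPM.

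The levels of the proximal genes in the sorted cells differed widely. Levels were divided by the kilobases of merged exons, to scale for annotated length. The mean vehicle level was then highest for Slc34a1 (356 CPM per kilobase) and Slc22a12 (261). These lay above 98.9% and 98.4% of 14575 genes with a known length. Slc22a8 (73.2), Slc22a6 (61.1) and Slc4a4 (37.2 CPM per kilobase) also lay above more than 91% of genes. Slc7a13 followed at 17.75, Lrp2 at 10.1, Slc9a3 at 3.76, Cubn at 2.93 and Slc5a2 at 0.584 CPM per kilobase. Slc9a3 and Cubn lay near the median, above 54.4% and 48.3% of genes, and Slc5a2 above 13.6% only. The ranges of the vehicle libraries overlapped between the neighbours Slc34a1 and Slc22a12 and between Slc9a3 and Cubn, and not between the other neighbours in this order. The order rests on exon lengths of the annotation and not on the transcripts present. Whether reads covered long transcripts evenly was not tested.

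Glutamine libraries had higher levels than vehicle libraries for most of the carriers, without any gene passing the adjusted threshold. Of the 10 genes, 9 had a positive and 1 a negative log2 fold change, with a median of 0.57 beside 0.0069 for all genes. In edgeR's quasi-likelihood test 0 of 10 had an adjusted p below 0.05 (range 0.208 to 0.917), and 5 had an unadjusted p below 0.05: Slc7a13, Slc4a4, Slc5a2, Slc22a6 and Slc9a3. The same 5 genes had every glutamine library above every vehicle library, which held for 9.01% of all tested genes in that direction. With DESeq2, Slc7a13 alone passed. The study's own list of changed genes, made from these libraries, includes Slc7a13 and Slc9a3, so their differences are not independent of that list. In these bulk samples, fewer cells of a type and less RNA per cell cannot be told apart.

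**Figure D1:**
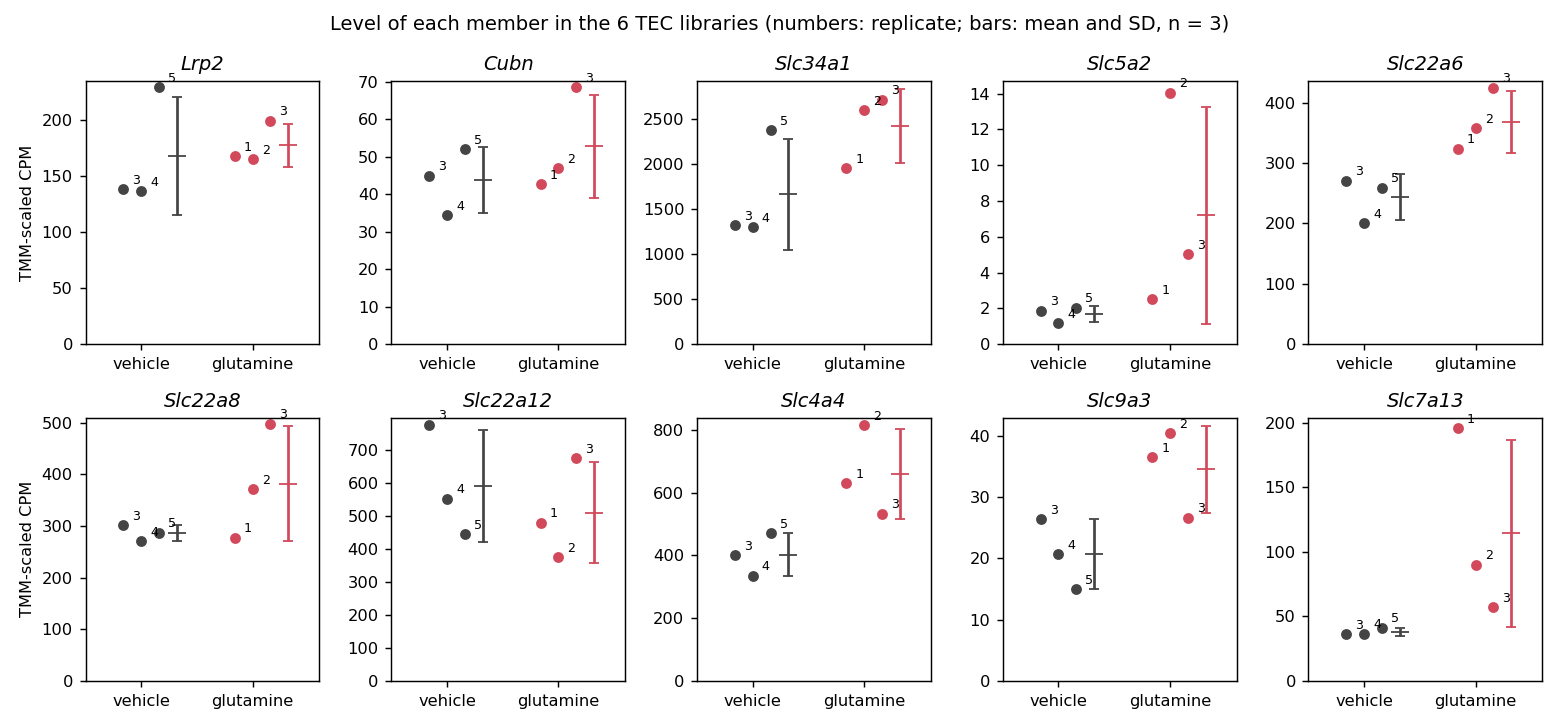
Level of each of the 10 genes in TECs, as TMM-scaled CPM on a linear axis from 0, with 1 point per library (numbers give the replicate) and the mean and SD of 3 libraries beside it; grey is vehicle and red is glutamine. The points of Slc5a2, Slc22a6, Slc4a4, Slc9a3 and Slc7a13 do not overlap between the groups, whereas those of the other 5 genes do.

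**Figure D2:**
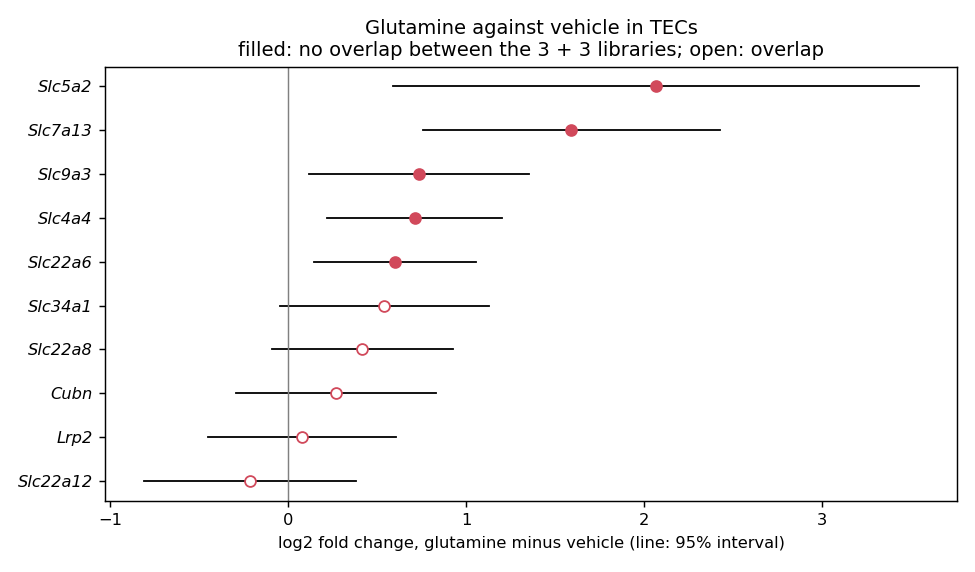
Log2 fold change of each gene, glutamine minus vehicle, with its 95% interval from edgeR's quasi-likelihood fit (3 libraries per group). Filled points mark genes whose libraries do not overlap between groups; the intervals of those 5 genes lie above 0 before adjustment for the number of genes tested.

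Megalin (Lrp2, chr2:69424340-69586065 on the minus strand, GRCm38) is the large receptor that takes up filtered proteins at the brush border. It had 138, 137 and 229.5 CPM in vehicle replicates 3, 4 and 5 and 168, 165 and 199.6 CPM in glutamine replicates 1, 2 and 3. The highest of all 6 values was vehicle replicate 5, and the groups overlapped. The log2 fold change was 0.08 (SE 0.24, 95% interval -0.45 to 0.61, edgeR adjusted p = 0.917). Its sign changed with the library left out, from -0.05 without vehicle replicate 4 to 0.36 without vehicle replicate 5.

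Cubilin (Cubn, chr2:13276338-13491813, minus strand) binds intrinsic factor, albumin and apolipoproteins and is brought into the cell with megalin. Its levels were 45.0, 34.5 and 52.0 CPM with vehicle and 42.8, 47.0 and 68.5 CPM with glutamine, in the same order of replicates. Only glutamine replicate 3 exceeded all vehicle libraries. Glutamine minus vehicle, this gave a log2 fold change of 0.27 (SE 0.26, 95% interval -0.29 to 0.83, edgeR adjusted p = 0.682). Leaving out 1 library moved it from 0.032 (without glutamine replicate 3) to 0.41 (without vehicle replicate 5). The ratio of Cubn to Lrp2 CPM lay between 0.227 and 0.325 with vehicle and between 0.255 and 0.343 with glutamine, so that the receptors kept overlapping proportions.

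Of 17 genes listed as partners of receptor endocytosis, Clcn5 and Ocrl were not found by symbol among the 50433 genes, and 15 were tested. Among these 15, 8 were higher and 7 lower, and the median log2 fold change was 0.05, moving from -0.093 (without vehicle replicate 3) to 0.21 (without vehicle replicate 5). At an unadjusted p below 0.05 in edgeR's test, 1066 of 14734 genes (7.23%) were higher and 812 lower. These counts are the background for this list and the later ones. In this list 0 had an adjusted p below 0.05, and unadjusted there were 1 higher and 2 lower. The higher one was Myo6, the motor that moves endocytic vesicles away from the brush border, at 489, 491 and 806 CPM with vehicle and 957, 1322 and 745 CPM with glutamine (log2 fold change 0.76, SE 0.27). Dab2, the adaptor that links megalin to the clathrin coat, had 648, 774.5 and 437 CPM with vehicle and 366, 291 and 484 CPM with glutamine (log2 fold change -0.70, SE 0.26). Rab11a, a GTPase of recycling endosomes, had 119, 121 and 90.2 CPM with vehicle and 88.8, 77.5 and 69.8 CPM with glutamine. Its log2 fold change was -0.48 (SE 0.21), without overlap, as held for 1446 of 14734 tested genes in the lower direction.

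Slc34a1 (chr13:55398187-55415592, plus strand) encodes NaPi-IIa, the main phosphate carrier of the brush border. Its levels were 1318, 1298 and 2374 CPM with vehicle and 1952, 2595 and 2711 CPM with glutamine. Vehicle replicate 5 lay above glutamine replicate 1, so that the groups overlapped. The log2 fold change was 0.54 (SE 0.27, 95% interval -0.05 to 1.13, edgeR adjusted p = 0.425). Leaving out 1 library moved it from 0.39 without vehicle replicate 4 (edgeR adjusted p = 0.774) to 0.88 without vehicle replicate 5 (edgeR adjusted p = 0.112). This gene made up between 39.7 and 56.9% of the summed CPM of the 10 genes in each library. Set against megalin, Slc34a1 had 9.52, 9.48 and 10.4 times the Lrp2 CPM with vehicle and 11.6, 15.7 and 13.6 times with glutamine, without overlap; this ratio was not tested.

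Other carriers of phosphate, sulfate and dicarboxylates had summed levels of 456 to 582 CPM with vehicle and 590 to 770 CPM with glutamine. Of the 9 listed and tested, 6 were higher and 3 lower (median log2 fold change 0.38, and 0.20 without glutamine replicate 3), with 0 past the adjusted threshold of edgeR's test and 2 higher at an unadjusted p below 0.05. These were Slc20a1, a phosphate carrier found in most cells, with 134, 138 and 98.6 CPM with vehicle and 193, 157 and 193 CPM with glutamine, and Slc13a3, a dicarboxylate carrier of the basolateral side. Slc13a3 had 64.8, 79.7 and 148 CPM with vehicle and 109, 224 and 213 CPM with glutamine, where vehicle replicate 5 again overlapped the glutamine libraries. Slc13a2, the citrate carrier of the brush border, stayed low at 0.592 to 6.01 CPM with vehicle and 6.23 to 8.44 CPM with glutamine (log2 fold change 1.30, SE 0.66).

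Slc5a2 (chr7:128265657-128272430, plus strand) encodes SGLT2, the glucose carrier of the early proximal tubule. Its levels were the lowest of the 10 genes, at 1.87, 1.16 and 2.04 CPM with vehicle and 2.52, 14.1 and 5.04 CPM with glutamine. These values rest on 13 to 20 counts per vehicle library and on 21, 70 and 46 counts in glutamine replicates 1, 2 and 3. All glutamine libraries lay above all vehicle libraries, and the value of glutamine replicate 1 was close to the highest vehicle value. The log2 fold change was 2.06 (SE 0.67, 95% interval 0.59 to 3.54, edgeR adjusted p = 0.256). Without glutamine replicate 2, the library with the fewest counts in all, it was 1.16.

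The Slc5a2 values carry a limit of assignment, since BC017158 lies on the opposite strand of the same locus. Of the 31-base stretches of Slc5a2 transcripts, 17.7% were shared with it, and the estimated counts of Slc5a2 were not whole in 6 of 6 libraries (tolerance 0.01), as held for Slc7a13 in 6 and Slc22a12 in 5 of 6 libraries. BC017158 itself had 371, 336 and 599 CPM with vehicle and 480, 600 and 480 CPM with glutamine. Whether strand was used in the counting is not given in the sources used here, and reads of these genes may have been split between them.

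Among the organic anion carriers of the Slc22 family, Slc22a6 and Slc22a8 had a positive log2 fold change and Slc22a12 a negative one. Their 95% intervals overlapped, and a difference between these genes was not tested. Slc22a6 (OAT1, chr19:8618039-8628299, plus strand) and Slc22a8 (OAT3, chr19:8591254-8611835, plus strand) take up anions and drugs from the blood, and 6203 bases separate these neighbours. Slc22a6 had 271, 200 and 259 CPM with vehicle and 324, 357.5 and 425 CPM with glutamine, without overlap. Its log2 fold change was 0.60 (SE 0.21, 95% interval 0.15 to 1.05, edgeR adjusted p = 0.275). Over the fits that left out 1 library it ranged from 0.47 to 0.69, the narrowest range among the 5 genes whose groups did not overlap.

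Slc22a8 had 302, 270.2 and 287 CPM with vehicle and 277, 371 and 498 CPM with glutamine. Glutamine replicate 1 lay within the vehicle range, and the other glutamine libraries lay above it. This amounted to a log2 fold change of 0.42 (SE 0.23, 95% interval -0.09 to 0.93, edgeR adjusted p = 0.471), and 0.18 without glutamine replicate 3. The ratio of Slc22a6 to Slc22a8 CPM was 0.740 to 0.903 with vehicle and 0.852 to 1.17 with glutamine, with overlap.

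Slc22a12 (URAT1, chr19:6535845-6543032, minus strand) is the urate exchanger of the brush border. It had 777, 553 and 445 CPM with vehicle and 479.9, 376 and 676 CPM with glutamine, a log2 fold change of -0.21 (SE 0.27, 95% interval -0.81 to 0.38, edgeR adjusted p = 0.773). The groups overlapped, and the value was 0.03 without vehicle replicate 3, -0.38 without vehicle replicate 5 and -0.47 without glutamine replicate 3. Measured against OAT1, which was itself higher in every glutamine library, the groups did not overlap. Slc22a12 had 2.87, 2.76 and 1.72 times the Slc22a6 CPM with vehicle and 1.48, 1.05 and 1.59 times with glutamine. Against OAT3 they overlapped, at 2.58, 2.05 and 1.55 times the Slc22a8 CPM with vehicle and 1.73, 1.01 and 1.36 times with glutamine. These ratios were not tested. Nrxn2 overlaps Slc22a12 on the opposite strand and shared most of the 29.9% of its 31-base stretches that also occur in other genes; Nrxn2 had 34.3 to 52.9 CPM with vehicle and 19.7 to 48.2 CPM with glutamine.

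Of 15 other organic ion and drug carriers, 12 were tested, with 8 higher and 4 lower (median log2 fold change 0.19; -0.061 without glutamine replicate 1 to 0.32 without glutamine replicate 2). None passed the adjusted threshold of edgeR's test, and unadjusted there were 1 higher and 1 lower. Slc22a2 (OCT2), which takes up organic cations from the blood, had 66.2, 48.8 and 85.2 CPM with vehicle and 152, 130.4 and 101 CPM with glutamine (log2 fold change 0.94, SE 0.25); it too stands in the study's own list. Abcc4 (MRP4), an exporter of anions and cyclic nucleotides, had 37.4, 63.2 and 37.7 CPM with vehicle and 22.7, 17.9 and 27.9 CPM with glutamine (log2 fold change -1.01, SE 0.28). Neither overlapped between groups, as held for 9.01% of all tested genes in the higher direction and 1446 of 14734 in the lower. Abcb1a, a drug exporter, had a log2 fold change of 0.52 (SE 0.32) with overlapping groups.

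Bicarbonate reabsorption pairs sodium-proton exchange at the brush border with bicarbonate exit at the basolateral side, and both carriers had higher values with glutamine. Slc4a4 (NBCe1, chr5:88886818-89239653, plus strand), the basolateral sodium bicarbonate cotransporter, had 401, 335 and 471.5 CPM with vehicle and 629.5, 815 and 532 CPM with glutamine. The groups did not overlap, and glutamine replicate 2 was highest. The log2 fold change was 0.71 (SE 0.22, 95% interval 0.22 to 1.20, edgeR adjusted p = 0.249), with a range of 0.53 to 0.84 when each library was left out.

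Slc9a3 (NHE3, chr13:74121457-74169442, plus strand), the brush border exchanger, had 26.3, 20.7 and 15.0 CPM with vehicle and 36.5, 40.4 and 26.6 CPM with glutamine. The lowest glutamine value was just above the highest vehicle value. In the fit the log2 fold change was 0.74 (SE 0.28, 95% interval 0.12 to 1.36, edgeR adjusted p = 0.323). The unadjusted p was no longer below 0.05 without vehicle replicate 4, vehicle replicate 5, glutamine replicate 1 or glutamine replicate 2. The ratio of Slc9a3 to Slc4a4 CPM was 0.0318 to 0.0657 with vehicle and 0.0496 to 0.0580 with glutamine, with overlap.

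Of 12 tested partners of sodium and bicarbonate reabsorption, 8 were higher and 4 lower (median log2 fold change 0.08; -0.041 without vehicle replicate 3 to 0.19 without vehicle replicate 5). In edgeR's test 0 had an adjusted and 0 an unadjusted p below 0.05. Car4, the brush border carbonic anhydrase, had 27.8, 24.5 and 55.7 CPM with vehicle and 43.7, 80.5 and 57.2 CPM with glutamine (log2 fold change 0.75, SE 0.34). Aqp1, the water channel of the proximal tubule and thin limb, had 1559, 3736 and 1872 CPM with vehicle and 906, 1486 and 1940.0 CPM with glutamine (log2 fold change -0.73, SE 0.35). Slc9a3r2, a scaffold that binds the exchanger NHE3, had 47.9, 51.9 and 12.4 CPM with vehicle and 15.9, 26.9 and 18.3 CPM with glutamine, with vehicle replicate 5 lowest of all (log2 fold change -0.89, SE 0.45).

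Slc7a13 (AGT1, chr4:19818725-19842218, plus strand) transports aspartate, glutamate and cystine at the brush border of S3. Its levels were 36.2, 36.55 and 41.3 CPM with vehicle and 196, 90.2 and 57.2 CPM with glutamine. The vehicle libraries lay close together, all glutamine libraries lay above them, and the glutamine libraries were spread more widely (SD 72.5 CPM against 2.83 CPM, n = 3 each). The fitted log2 fold change was 1.59 (SE 0.38, 95% interval 0.76 to 2.43, edgeR adjusted p = 0.208), and the gene ranked 105 by p among 14734. DESeq2 gave the same size with an adjusted p of 0.00232. Without glutamine replicate 1 the edgeR value was 0.95, which is the lowest of the fits that left out 1 library, and the highest was 1.91 without glutamine replicate 3. Slc3a1 encodes rBAT, the heavy chain that pairs with this carrier; it was singled out after its values were seen, had 0 to 0.611 CPM in each library and did not pass the filter. Of its 31-base stretches, 25.5% are shared with Prepl.

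**Figure D3:**
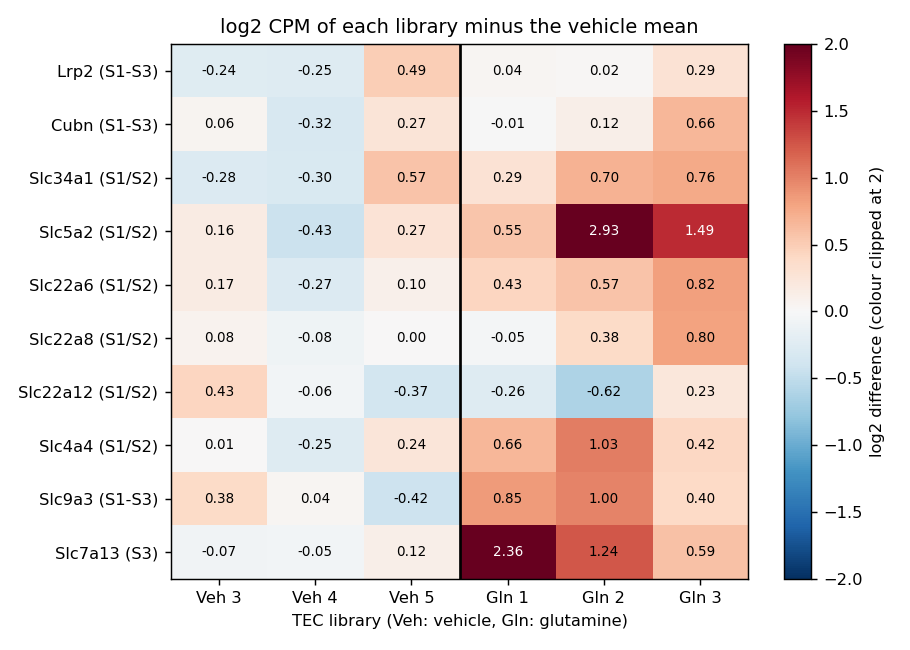
Difference of each library's log2 CPM from the mean of the vehicle libraries, for the 10 genes (rows, with their segment) and the 6 TEC libraries (columns); the colour is clipped at 2 and the printed value is not. Glutamine replicates 2 and 3 are above the vehicle mean for 9 and 10 genes, vehicle replicate 4 for 1 gene, and vehicle replicate 5 for 8 genes.

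By library, the 10 genes differed in where they were high. Vehicle replicates 3, 4 and 5 had 7, 1 and 8 genes above the vehicle mean, with median differences of 0.07, -0.25 and 0.18 on the log2 scale. Glutamine replicates 1, 2 and 3 had 7, 9 and 10 genes above it, with median differences of 0.36, 0.63 and 0.63. Summed over the 10 genes, the level was 3317, 2886 and 4176 CPM with vehicle and 4108, 4871 and 5199 CPM with glutamine, where vehicle replicate 5 exceeded glutamine replicate 1. Within each glutamine library the largest difference was 2.36 for Slc7a13 in replicate 1, 2.93 for Slc5a2 in replicate 2 and 1.49 for Slc5a2 in replicate 3. Across the 6 libraries, which differ in treatment and depth, Pearson's r between Slc4a4 and Slc5a2 was 0.880 and between Lrp2 and Slc34a1 0.811, while Slc22a12 and Slc4a4 had -0.621; these are descriptions over 6 points.

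Leaving out vehicle replicate 5 gave 9 higher and 1 lower gene, a median log2 fold change of 0.59 and 5 unadjusted calls in edgeR's test, with Slc34a1 in place of Slc9a3. Leaving out vehicle replicate 4 or glutamine replicate 2 left 3 of the 5 unadjusted calls. Slc4a4 and Slc7a13 had an unadjusted p below 0.05 in each of the 6 fits that left out 1 library.

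The comparison of early with late segment carriers rests on 6 genes against 1. As the mean log2 CPM of the 6 S1/S2 genes minus the log2 CPM of Slc7a13, the vehicle libraries had 2.48, 2.14 and 2.33 (mean 2.32, SD 0.17, n = 3) and the glutamine libraries 0.23, 1.91 and 2.48 (mean 1.54, SD 1.17, n = 3). The difference was -0.78 and the groups overlapped, since glutamine replicate 3 equalled the highest vehicle library. Glutamine replicate 1 set most of it: without that library the difference was -0.13. With wider lists that leave out the 10 genes, 13 early and 9 late genes, the values were 1.59, 1.60 and 2.73 with vehicle and 1.41, 2.49 and 2.15 with glutamine, a difference of 0.05 in the opposite direction. Both scores overlapped between the groups, and a shift between early and late segment genes was not tested.

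**Figure D4:**
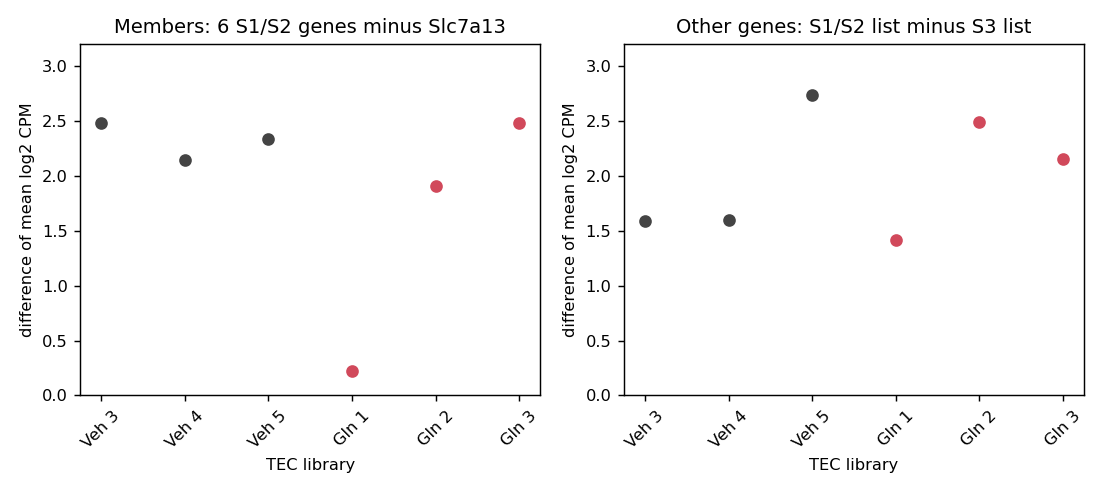
Early minus late segment level per TEC library, as a difference of mean log2 CPM, for the 10 genes (left: 6 S1/S2 genes minus Slc7a13) and for 13 other S1/S2 and 9 other S3 genes (right); grey is vehicle and red is glutamine. Glutamine replicate 1 is the lowest of the 6 libraries on both sides, at 0.23 on the left and 1.41 on the right, where vehicle replicates 3 and 4 follow at 1.59 and 1.60.

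Of the 13 other S1/S2 genes, 11 were higher and 2 lower with glutamine (median log2 fold change 0.25; 0.58 without vehicle replicate 5 and 0.13 without vehicle replicate 3), with 0 past the adjusted threshold of edgeR's test and 2 unadjusted, both higher. Slc5a12, the lactate carrier of the early tubule, had 7.69, 9.76 and 17.5 CPM with vehicle and 12.5, 26.1 and 33.4 CPM with glutamine (log2 fold change 1.04, SE 0.42). Slc13a3, described above, was the other. Miox, the enzyme that opens the inositol ring, had 458, 387 and 719.7 CPM with vehicle and 532, 964 and 801 CPM with glutamine (log2 fold change 0.55, SE 0.28).

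Of the 13 other S3 genes, 9 were tested, with 5 higher and 4 lower (median log2 fold change 0.03; -0.15 without glutamine replicate 1 to 0.30 without vehicle replicate 3). In edgeR's test 0 had an adjusted p below 0.05 and 1 an unadjusted one. That gene was Ggt1, the brush border enzyme that cleaves glutathione, with 302, 268 and 291 CPM with vehicle and 462, 385.5 and 438 CPM with glutamine, without overlap (log2 fold change 0.58, SE 0.18). Cyp7b1, an oxysterol hydroxylase, had at most 1.25 CPM with vehicle and 1.32 to 2.04 CPM with glutamine. Slc6a18, a neutral amino acid carrier of the late tubule, had 209.9, 265 and 180 CPM with vehicle and 244, 103 and 127 CPM with glutamine (log2 fold change -0.46, SE 0.31).

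Of 10 transcription factors, listed as regulators of proximal identity although Foxj1 among them is known for motile cilia instead, 8 were tested, 4 of them higher and 4 lower (median log2 fold change 0.03; -0.11 without vehicle replicate 3 to 0.14 without vehicle replicate 5). In edgeR's test 0 had an adjusted and 0 an unadjusted p below 0.05. Those with the smallest p were Tfeb (log2 fold change 0.61, SE 0.34), Foxj1 (1.08 to 3.16 CPM with vehicle, 0.721 to 1.21 CPM with glutamine) and Esrra (log2 fold change 0.30, SE 0.26).

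Of 11 tubular injury genes, all tested, 4 were higher and 7 lower (median log2 fold change -0.21, and 0.0095 without vehicle replicate 3), with 0 past the adjusted threshold of edgeR's test and 1 unadjusted, Havcr1. Its log2 fold change was -3.08 (SE 0.65), and the fit without vehicle replicate 5 gave it an edgeR adjusted p of 0.0400, beside 0.0369 from DESeq2 with all libraries. Spp1, the gene of osteopontin, had 6608, 6323 and 1784 CPM with vehicle and 3981, 2778 and 2106 CPM with glutamine (log2 fold change -0.73, SE 0.42). Krt8, a keratin of simple epithelia, had a log2 fold change of -0.30 (SE 0.20). Vehicle replicate 5 was the lowest vehicle library in 6 of the 11 injury genes, Havcr1 and Spp1 among them, and the highest in the other 5. The same library was the highest vehicle library in Lrp2, Cubn, Slc34a1, Slc5a2, Slc4a4 and Slc7a13 and the lowest in Slc22a12 and Slc9a3. Whether injury and the carriers are related across libraries was not tested.

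Markers of other cells were present in the sorted fraction. The thick ascending limb list, with 6 of 6 genes higher (median 0.36; 0.13 without glutamine replicate 2, 0.14 without vehicle replicate 5 and 0.72 without vehicle replicate 3), summed to 1092 to 2127 CPM with vehicle and 1403 to 2391 CPM with glutamine. Umod had 1989, 1189 and 997 CPM with vehicle and 1226, 2110.0 and 1262 CPM with glutamine and Slc12a1 had 38.3, 45.0 and 38.0 against 53.0, 143 and 104 CPM. The groups overlapped in Umod (log2 fold change 0.14, edgeR adjusted p = 0.879) and not in Slc12a1 (1.30, edgeR adjusted p = 0.208). The distal convoluted tubule list, also with 6 of 6 higher (median 0.70), summed to 217 to 279 CPM with vehicle and 268 to 414 CPM with glutamine, and its most abundant gene, Wnk1, had 134 to 158 against 142 to 191 CPM. Slc12a3, the thiazide-sensitive carrier, had 90.5, 37.4 and 43.0 CPM with vehicle and 110.3, 145 and 62.4 CPM with glutamine, and Calb1 had 27.0, 25.8 and 25.5 against 45.6, 46.6 and 41.1 CPM. The groups overlapped in Slc12a3 (log2 fold change 0.89, edgeR adjusted p = 0.359) and not in Calb1 (0.77, edgeR adjusted p = 0.223). The leukocyte list had 8 of 9 tested genes higher (median 0.72) and summed to 78.0 to 187 CPM with vehicle and 87.8 to 294 CPM with glutamine. The collecting duct list (106 to 227 against 106 to 315 CPM), the podocyte list (77.8 to 134 against 112 to 137 CPM), the endothelial list (317 to 528 against 317 to 443 CPM) and the stromal list (17.4 to 22.9 against 20.0 to 36.8 CPM) also overlapped between the groups. In edgeR's test 0 genes of these lists had an adjusted p below 0.05; unadjusted there were 2 in the ascending limb, 3 in the distal convoluted tubule and 1 in the leukocyte list, all higher. No marker of these lists was at 0 in every library. Of the sort genes, Prom1 had 64.6, 70.1 and 76.5 CPM with vehicle and 83.5, 82.2 and 75.0 CPM with glutamine, and Ptprc, which encodes CD45, had 1.48, 1.52 and 0.102 against 2.28, 1.81 and 2.74 CPM. The part of these cells in the values of the 10 genes was not tested.

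To find the genes that followed the 10 carriers most closely, each gene's log2 CPM was correlated with the mean standardised profile of the 10, which was -0.38, -0.96 and -0.21 in vehicle replicates 3, 4 and 5 and 0.18, 0.56 and 0.80 in glutamine replicates 1, 2 and 3. Among 8407 genes of at least 10 CPM, Aldh1l1, a folate enzyme, had the highest Pearson's r at 0.986. It was followed by 0610005C13Rik (0.982), Asl, an enzyme of arginine synthesis (0.982), Dst (0.981), Tcn2, the plasma carrier of vitamin B12 (0.981), Tnrc6a (0.976), Arl6ip1 (0.974), Gstk1 (0.965), Kmt2c (0.963) and Ctf2 (0.961). These coefficients describe 6 libraries that also differ by treatment.

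The neutrophils served as the negative control. The tables were normalized separately, so their levels are set side by side without a test. In TECs the lowest library exceeded the highest PMN library for 9 of the 10 genes, by 5.62 times for Slc9a3 up to 119 times for Slc22a8. Slc5a2 was the exception, and 4 of 6 PMN libraries held 0 counts of it. At a limit of 3 counts per library this allows up to 0.148 CPM before TMM scaling. Its lowest TEC value of 1.16 CPM lay under a single PMN value of 1.32 CPM in vehicle replicate 2. That single value comes from only 1 of the 2 columns of its library, the other being 0.

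Slc34a1 was the most abundant of the 10 genes in PMN, at a lowest, median and highest value of 3.61, 18.3 and 44.0 CPM, and Slc22a6 followed at 3.11, 6.13 and 11.5 CPM. Lrp2 had a median of 3.66 CPM and a highest value of 10.2 CPM, and Slc22a12 a median of 1.89 and a highest value of 6.92 CPM. Slc4a4 had a median of 0.693 CPM but reached 34.8 CPM in glutamine replicate 1, the library in which Slc34a1 was highest too. Slc22a8, Cubn, Slc9a3 and Slc7a13 had medians of 0.139, 0.0466, 0 and 0.0932 CPM. Summed over the 10 genes, PMN libraries had 19.1 to 96.2 CPM and TEC libraries 2886 to 5199 CPM.

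**Figure D5:**
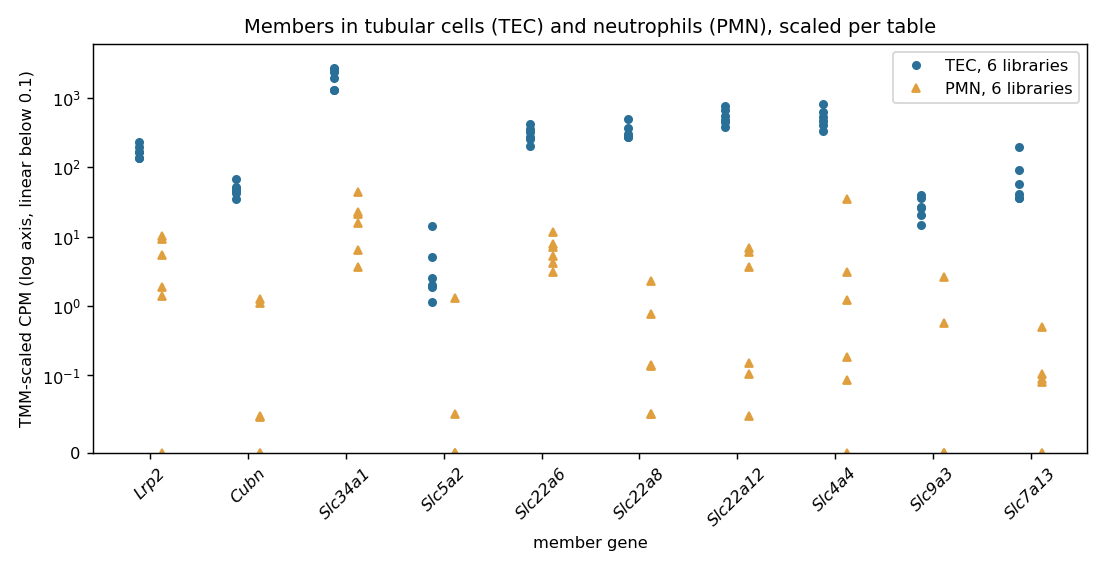
Level of the 10 genes in the 6 TEC libraries (circles) and the 6 PMN libraries (triangles), as CPM scaled within each table, on a log axis that is linear below 0.1. The TEC points lie above the PMN points for every gene except Slc5a2, where 1 PMN library at 1.32 CPM reaches into the TEC range.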

How the data were processed

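RNA of sorted TECs and PMN was reverse transcribed from the polyA tail and read as single ends of 50 bases. The submitters' processing notes name Trim Galore 0.6.4, Salmon 1.0.0, DESeq2 and the mm10 build; the annotation release and the strand setting are not given in the sources used here. For each gene symbol the authors deposited unnormalized estimated counts, in which reads fitting several transcripts are divided among them, so that values need not be whole. TEC estimated counts were rounded. The PMN table, also deposited by the authors as estimated counts, had been resaved by a spreadsheet: 3.20% of its cells carried extra points and 0.391% had become dates, which were turned back into numbers. It was used after this decoding for levels only, with no test; its 2 columns per library were averaged. PMN libraries held 20225246 to 21878446 counts. Of the columns with sample values, 0 were left out.

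TEC counts were tested with edgeR 4.0.16 in R 4.3.3 (TMM scaling, default expression filter, quasi-likelihood test, Benjamini-Hochberg adjusted p below 0.05 over all genes), and the test was checked on simulated counts. The SE came from the fold change and the F statistic, and log2 CPM used a prior count of 2. DESeq2 1.42.0, limma 3.58.1 (voom), other scalings and filters, and fits without each library were alternatives. Positions and exon lengths came from GENCODE M21 on GRCm38, and promoter windows from RefSeq on GRCm38.p6. Each library is 1 mouse according to the study, so p-values of the main fit measure the spread between 3 mice per group. The floor of 3 counts covers counting error only.

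The 10 genes and all lists were chosen with earlier results of these data known. Every one of the 10 genes is named. From each list at most 3 genes are named, those with the smallest unadjusted p or, for cell type lists, the most abundant, plus Prom1 and Ptprc, and Slc3a1 was added after its values were seen; of the genes this rule covers, some are not reported here. The 10 genes closest to the mean profile are also named. The authors' own comparison values were not used here.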

Additional observations from a re-analysis of the deposited data

Results flagged for a closer look

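Slc34a1 and Slc22a6, which neutrophils should lack, had more than 3 counts in each of the 6 PMN libraries, a table that the glutamine comparison does not use. The lowest PMN library had 3.61 CPM for Slc34a1 and 3.11 CPM for Slc22a6. Before TMM scaling, 3 counts amount to 0.137 to 0.148 CPM in these libraries. The source of these reads was not tested.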

How the results depend on the processing

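No paired analysis was possible because a single number, 3, occurs in both TEC groups, and because the PMN numbers are names without a pairing. Of 140 values of the 10 genes under other settings, 133 kept their direction and their side of the threshold. Over all genes, 0 passed in the main setting, 246 with DESeq2 and 425 without the filter on low counts, and the fits that left out 1 library gave 0 to 36, with 36 without glutamine replicate 2 and 4 without vehicle replicate 5. Of the 10 genes, 0 passed in the main setting. Slc7a13 alone passed with DESeq2 (log2 fold change 1.59, DESeq2 adjusted p = 0.00232) and without the filter (1.56, edgeR adjusted p = 1.01e-06). The SE without the filter was nearly the same for Lrp2 (0.24), Slc34a1 (0.24) and Slc7a13 (0.26). In the main setting Slc7a13 had an SE of 0.38. The p-values without the filter therefore took little account of each gene's own spread between mice. Limma-voom, the other scalings and the stricter filter gave 0. Of the list genes, 8 passed without the filter, and 0 to 1 when a library was left out, the 1 being Havcr1 without vehicle replicate 5. The log2 fold change of Lrp2 turned to -0.073 with library totals, and leaving out 1 library gave -0.053 (without vehicle replicate 4) to 0.36 (without vehicle replicate 5), also negative without vehicle replicate 3 (-0.050) and glutamine replicate 3 (-0.017). That of Slc22a12 ranged from -0.47 (without glutamine replicate 3) to 0.029 (without vehicle replicate 3). The S1/S2 minus S3 difference was -1.25 to -0.13 when a library was left out and 0.047 with the wider lists. Library totals moved the median of all genes to -0.16 and that of the 10 genes to 0.41, with 8 higher and 2 lower. The cause was not tested. Depth limits Slc5a2 most, at 13 to 70 counts per library.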
